A study of Mus musculus with 2 samples.

Results

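Cck, Gdnf, Bdnf, Ptn and Mdk encode secreted signalling proteins, and their transcripts were followed here in mouse rib chondrocytes. The genes were chosen by name, as neurotrophic factors, the related growth factors pleiotrophin and midkine, and the peptide gene Cck. All probe sets whose annotation names only 1 of these symbols were used, which gave 8 of the 45037 probe sets on the array, for 5 of 18193 genes. The grouping was made with their ratios known, so the values describe the arrays and support no claim about the genes as a group.

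The V156D sample came from mice with a V156D knock-in of Matn1, the gene of matrilin-1, which forms oligomers in cartilage matrix. The wild-type sample came from mice without it, and both were taken at 5 days of age. Cartilage cells were freed from the ribs with collagenase, and RNA was pooled over 5 littermates according to the design text. Each genotype is therefore 1 array of pooled RNA, and no spread between animals exists. Whether 5 animals were pooled for each genotype, the zygosity of the knock-in and the sex of the animals were not stated in the sources used here.

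Gdnf, the glial cell line-derived neurotrophic factor, binds the co-receptor encoded by Gfra1 and signals through the receptor tyrosine kinase Ret. Bdnf, the brain-derived neurotrophic factor, signals through the kinase TrkB, encoded by Ntrk2, and its precursor binds Ngfr together with sortilin or its relatives. Pleiotrophin and midkine, encoded by Ptn and Mdk, are heparin-binding proteins that share the receptor Ptprz1 and syndecans, and both are expressed in the developing skeleton. Cck encodes cholecystokinin, a peptide hormone of gut and brain that is cut from a larger precursor and acts through Cckar and Cckbr.

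The array measured both samples over a similar range. The median intensity was 55.1 on the V156D array and 54.3 on the wild-type array. Every one of 15 chondrocyte markers lay at or above the signal floor on both arrays, and Col2a1, the main cartilage collagen, had 29057 in V156D and 27997 in wild type. The floor, an intensity of 54.6, is the 50th percentile of mean log2 signals over the whole array. Matn1 itself had intensities of 4340 in V156D and 4373 in wild type, a level that does not tell which allele was expressed.

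The regulatory sequence just upstream of the members that differed is shown first, because Cck is known to be driven through a cAMP-response or AP-1 type element close to its start site. RefSeq start sites of GRCm38.p6 were matched by symbol for 4 of the 5 genes, at 11 sites. Each line gives the 250 bases before the most upstream start, 5′ to 3′ on the gene's strand, with matches to CGTCA and TATAAA in capitals.
Cck (chr9:121495695-121495944, minus strand): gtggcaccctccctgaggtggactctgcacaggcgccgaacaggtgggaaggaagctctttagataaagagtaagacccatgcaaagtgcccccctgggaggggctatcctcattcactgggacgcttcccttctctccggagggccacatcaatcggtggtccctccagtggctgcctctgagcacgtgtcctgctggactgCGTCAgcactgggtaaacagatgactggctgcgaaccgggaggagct
Gdnf (chr15:7809798-7810047, plus strand): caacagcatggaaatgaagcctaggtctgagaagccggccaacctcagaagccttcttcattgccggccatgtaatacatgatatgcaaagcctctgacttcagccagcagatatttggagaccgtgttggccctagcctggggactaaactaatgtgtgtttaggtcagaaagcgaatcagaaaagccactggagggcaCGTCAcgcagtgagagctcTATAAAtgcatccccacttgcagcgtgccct
Ptn (chr6:36810180-36810429, minus strand): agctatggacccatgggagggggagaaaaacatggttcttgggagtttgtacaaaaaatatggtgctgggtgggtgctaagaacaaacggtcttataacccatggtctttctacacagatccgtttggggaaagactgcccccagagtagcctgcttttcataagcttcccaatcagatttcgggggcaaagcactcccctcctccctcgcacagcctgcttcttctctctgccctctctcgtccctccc

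Both strands of these windows were searched for CGTCA, the half-site of the cAMP-response element, for the full element TGACGTCA, which contains it, for the AP-1 element TGANTCA, and for the TATA box TATAAA. Cck held CGTCA at -47 to -43 from the start. Of the 2 Gdnf starts, the first held CGTCA at -50 to -46, followed by TATAAA at -31 to -26. The second Gdnf start held none of the 4 motifs. The window of Ptn held none of the 4 motifs. Of the 7 Bdnf starts, the third held CGTCA at -35 to -31 and the second held TGANTCA at -152 to -146. CGTCA was present in 17.8% of all 32851 such windows, TATAAA in 12.4%, TGANTCA in 6.75% and TGACGTCA in 1.55%. A match is a run of letters and not a measured binding site.

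The members divided by direction. Cck and Gdnf were lower in the V156D array, Ptn was higher, and Mdk and Bdnf were close to equal. Among the 4 members at or above the floor, 2 were at least 2-fold lower and 1 was at least 2-fold higher. One of the lower members, Gdnf, reached the floor only through its wild-type value, and among the 3 members at or above it on both arrays, 1 was at least 2-fold lower. Over all 11329 genes at or above the floor, 0.256% were at least 2-fold lower and 0.653% at least 2-fold higher, and the median log2 ratio was -0.02. The members' own log2 ratios of V156D over wild type ran from -1.46 to 1.17, with a median of 0.20 over all 5.

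**Figure D1:**
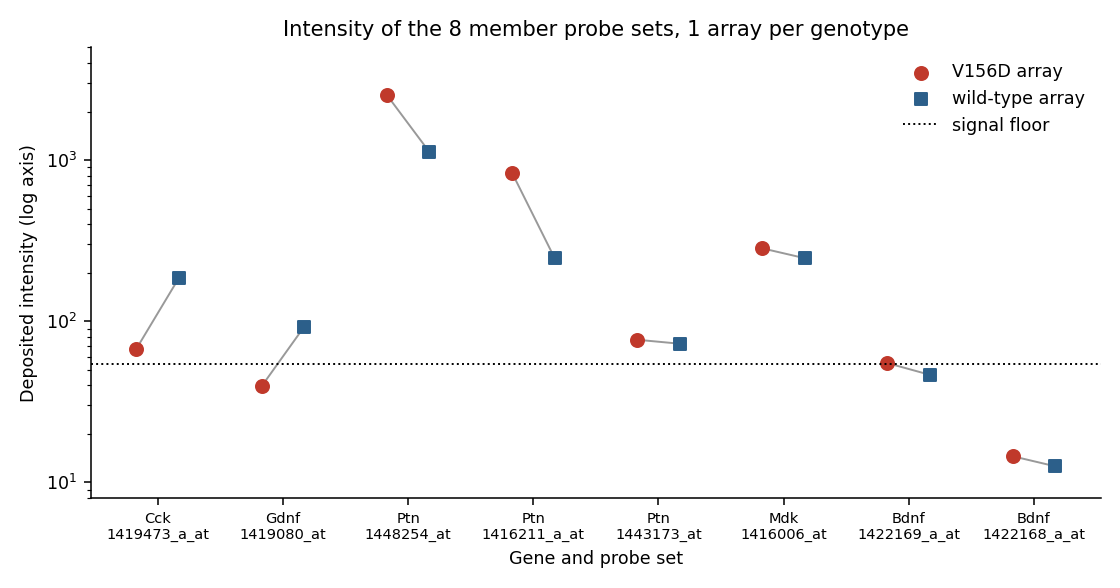
Deposited intensity (log axis) of each of the 8 probe sets on the V156D array (circles) and the wild-type array (squares), joined by a line, with the signal floor of 54.6 dotted. Cck and Gdnf were lower in V156D, the 2 bright Ptn probe sets were higher, and the other 4 probe sets were nearly level.

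Cck had an intensity of 67.6 in V156D and 186 in wild type. That is 2.75-fold lower, a log2 ratio of -1.46, from the only Cck probe set, 1419473_a_at. Both arrays lay above the floor. The ratio held rank 5 from the lowest among the 11329 genes. Of 2618 genes within 0.5 log2 of the mean signal of Cck, 7 were at least 2-fold lower, or 0.267%. The suffix _a_at marks probes that match several transcripts of the same gene, so the value may join alternative transcripts. With an offset of 32 added to each intensity, which damps ratios at low signal, the log2 ratio was -1.13.

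Neither cholecystokinin receptor gene differed 1.5-fold. Cckbr, the receptor of gastrin and cholecystokinin in brain and stomach, had 81.0 in V156D and 78.6 in wild type by its brighter probe set. Its second probe set had 41.1 in V156D and 54.1 in wild type, a log2 ratio of -0.40 below the floor. Cckar, the receptor of pancreas and gall bladder, had 17.9 in V156D and 13.5 in wild type, both below the floor. The related hormone gene Gast was also below it. The genes of propeptide processing encode the enzymes and helpers that cut, sulphate and amidate such precursors. Of 14 measured, 11 were at or above the floor and none differed 1.5-fold, against 2.02% lower and 1.70% higher over all genes. These 11 ran from Tpst2, a sulphotransferase, at a log2 ratio of -0.26 to the convertase gene Pcsk5 at 0.47. Pam, the amidating enzyme, had a ratio of 0.12.

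Gdnf had an intensity of 39.5 in V156D and 92.4 in wild type. That is 2.34-fold lower, a log2 ratio of -1.23, from its 1 probe set. The V156D value lay below the floor and the wild-type value above it, and the mean log2 signal of 5.92 was just inside the floor of 5.77. Gdnf thus passed the filter only through the array where it was high, and its fold is against a value below the floor. With the floor in place of the V156D value, the Gdnf fold was 1.69. The floor is a chosen percentile and not a detection limit, so that fold is no lower bound. The difference missed 2-fold with the offset of 32, at a log2 ratio of -0.80, and Gdnf dropped out of the count with the floor at the 60th percentile.

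Of the GDNF receptor genes, Ret was the lowest. Its brighter probe set, 1436359_at, had 167 in V156D and 319 in wild type, 1.91-fold lower. The other Ret probe set had 92.1 in V156D and 105 in wild type, a log2 ratio of -0.19 against -0.93 for the first. The gap between them exceeds the SD of 0.26 that the difference between the 2 brightest probe sets of a gene showed over 4878 genes, so the size of the Ret difference depended on the probe set. Gfra1 had 196 in V156D and 168 in wild type, and Ncam1, a cell adhesion molecule that can also bind Gdnf, had 327 in V156D and 278 in wild type. Of the 7 measured receptor genes, all at or above the floor, 1 was at least 1.5-fold lower and 0 were at least 1.5-fold higher, against 2.02% and 1.70% of all genes. Their median was 0.09.

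The other GDNF family ligands were level. Nrtn, neurturin, had 284 in V156D and 267 in wild type. Artn, artemin, had 130 in V156D and 113 in wild type. Both were at or above the floor on both arrays, as Gdnf was not, and Pspn, persephin, lay below it. Whether Gdnf differed from its relatives beyond error could not be tested with 1 array per genotype.

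**Figure D2:**
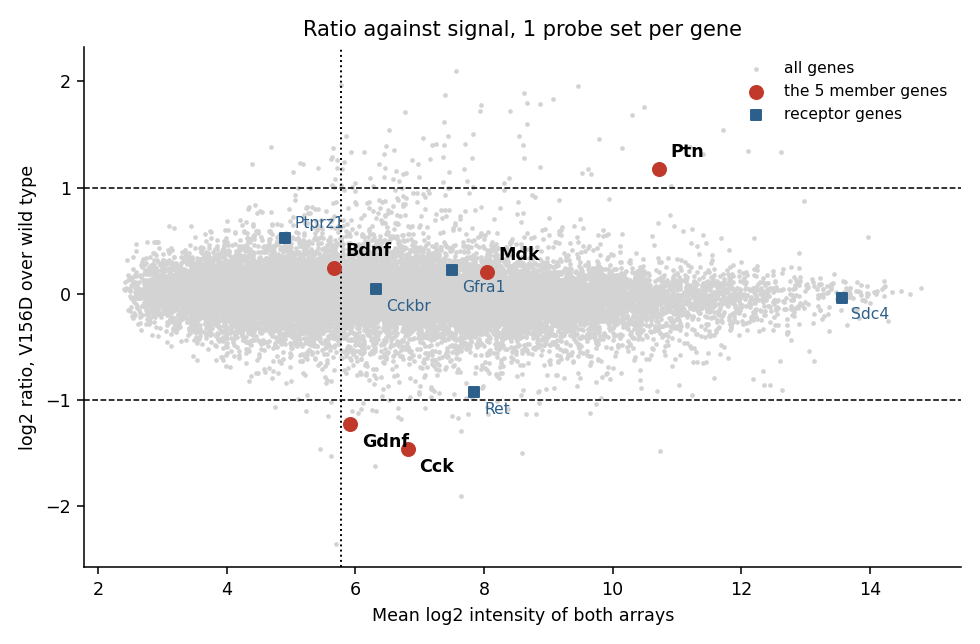
log2 ratio of V156D over wild type against the mean log2 intensity of both arrays, 1 point per gene (grey), with the 5 members as circles and 5 receptor genes as squares, 2-fold as dashed lines and the signal floor as a dotted line. Cck and Gdnf lie under the lower line at low to moderate signal, Ptn over the upper line at high signal, and Ret just short of the lower line.

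Ptn gave the opposite direction, and 2 of its 3 probe sets showed it. The brightest, 1448254_at, had an intensity of 2534 in V156D and 1123 in wild type, 2.26-fold higher. A second, 1416211_a_at, had 835 in V156D and 247 in wild type, 3.38-fold higher. The third, 1443173_at, had 76.7 in V156D and 72.5 in wild type, a log2 ratio of 0.08. All 3 lay above the floor on both arrays, and the third was the closest to it. The mean of the 3 log2 ratios was 1.005 ± 0.85 (SD over probe sets, which share the RNA and are not replicates).

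The brightest Ptn probe set had a mean log2 signal 4.95 above the floor, where that of Cck lay 1.04 and that of Gdnf 0.15 above it. Of 4878 genes with 2 or more probe sets reaching the floor, 20 were at least 2-fold higher by both of their brightest, or 0.410%, and Ptn was among them. Its ratio by the brightest probe set held rank 52 from the highest. Of 714 genes within 0.5 log2 of its mean signal, 5 were at least 2-fold higher, or 0.700%. The offset of 32 left the log2 ratio at 1.15.

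Mdk, the relative of Ptn, had an intensity of 283 in V156D and 246 in wild type, 1.15-fold higher from 1 probe set. The log2 ratio of 0.20 lay within the SD of 0.27 of all ratios at or above the floor, which is a spread over genes and not an error. The members of this small family thus had unequal ratios, 1.17 for Ptn and 0.20 for Mdk, each from its brightest probe set, and the difference between them has no test.

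The receptors of pleiotrophin and midkine were mostly level. Of 17 measured, 11 were at or above the floor, none of them differed 1.5-fold, and the median log2 ratio was 0.08. Over all genes at or above the floor, 2.02% were at least 1.5-fold lower and 1.70% at least 1.5-fold higher. Ptprs, a receptor phosphatase that binds heparan sulphate and chondroitin sulphate, was the highest of the 11 at 0.46, with 1881 in V156D and 1368 in wild type. Its weaker probe sets with a mean signal at or above the floor gave 0.03 and -0.22. Ncl, nucleolin, was the lowest at -0.15. Ptprz1, the best known receptor phosphatase of pleiotrophin, had 35.9 in V156D and 24.9 in wild type, and Alk, a receptor kinase, had 51.8 in V156D and 46.6 in wild type. Both lay below the floor on both arrays. The syndecans, cell surface proteoglycans that bind these ligands, were bright. Sdc4 had 11921 in V156D and 12242 in wild type, and Sdc1 and Sdc3 had log2 ratios of 0.18 and 0.09. Sdc2 had 954 in V156D and 717 in wild type, a ratio of 0.41, but its next brightest probe sets gave 0.16 and 0.17. Lrp1, an endocytic receptor, had a ratio of 0.15.

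Bdnf was weak on both arrays. Its brighter probe set, 1422169_a_at, had 54.9 in V156D and 46.5 in wild type, with a mean log2 signal of 5.66, just outside the floor. The other, 1422168_a_at, had 14.5 in V156D and 12.6 in wild type. The log2 ratios were 0.24 and 0.21, and neither is counted. The other measured neurotrophin, Ntf5, had 64.0 in V156D and 63.0 in wild type.

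The 4 neurotrophin receptor genes that reached the floor had ratios above 0 by their brightest probe set. Sorcs2, a sortilin relative that binds the Bdnf precursor, was 1.62-fold higher from 1 probe set, with 107 in V156D and 66.2 in wild type. It was the 1 gene of the 4 that passed 1.5-fold, where 1.70% of all genes at or above the floor were that much higher. Ntrk2 had 214 in V156D and 191 in wild type by its brightest probe set, but its 3 probe sets at or above the floor gave log2 ratios of 0.16, 0.41 and -0.17. Sort1, sortilin, had 693 in V156D and 617 in wild type, and Ngfr, the low-affinity neurotrophin receptor, had 81.4 in V156D and 78.3 in wild type. A second probe set of Sort1 gave -0.19 and one of Ngfr, below the floor, gave -0.42, so their small differences had no settled sign. Over the receptor genes of all 5 members, 22 of 32 measured were at or above the floor and none differed 2-fold. Such differences were rare in any case, at 0.256% lower and 0.653% higher over all genes at or above the floor.

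**Figure D3:**
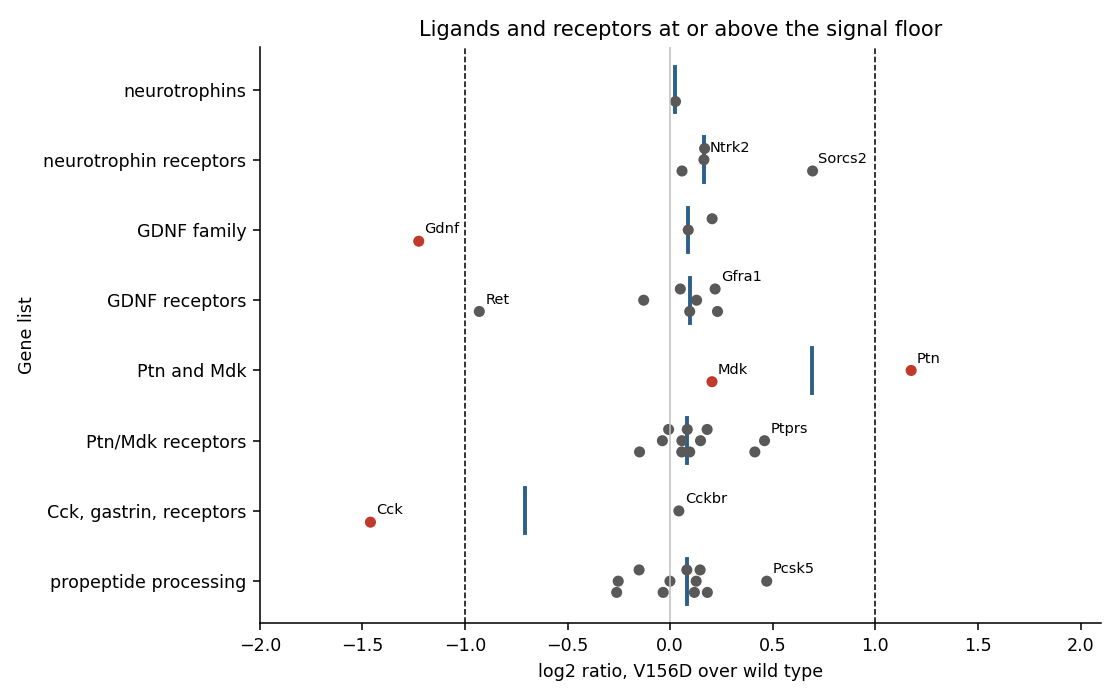
log2 ratio of V156D over wild type for ligand, receptor and processing genes at or above the signal floor, 1 point per gene, by list, with the list median as a vertical bar, members in red and 2-fold as dashed lines. Cck, Gdnf and Ptn lie past 2-fold and no receptor or processing gene does, where 0.256% of all genes lie past it downwards and 0.653% upwards.

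Cytokines of the LIF and CNTF type, which also sustain neurons, and Manf, which is not of that type, were measured beside the members. Lif, leukaemia inhibitory factor, was 1.65-fold lower, with 1076 in V156D and 1771 in wild type, and its second probe set gave 58.4 in V156D and 103 in wild type. Clcf1, a cardiotrophin-like cytokine, had log2 ratios of -0.44, -0.39 and -0.17 from its 3 probe sets. Ctf1, cardiotrophin-1, had 0.10, and Manf, an ER-resident neurotrophic protein, -0.32. Of the 4 measured, with Manf counted, 3 had ratios below 0 and 1 was at least 1.5-fold lower, against 2.02% of all genes at or above the floor.

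A list of 16 other genes known to respond through cAMP-response elements was read beside Cck, and none of its members at or above the floor differed 2-fold. Of 14 that reached the floor, 12 lay below a ratio of 0 and 2 above it, with a median of -0.06 beside -0.02 for all genes. Arc, an activity-regulated gene, was lowest, 1.62-fold lower at 769 in V156D and 1242 in wild type. Pde4d, a cAMP phosphodiesterase, was highest at 0.36. The absence of a 2-fold difference in this list stands beside shares of 0.256% lower and 0.653% higher over all genes.

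Markers of other cells and of stress moved in the same arrays, and their part in the member values was not tested. In pooled tissue, fewer cells of a type and less RNA per cell cannot be told apart. All 15 fibroblast, perichondrium and tendon markers were at or above the floor by mean signal, 14 of them on both arrays. Scx had 73.0 in V156D and 50.1 in wild type, the latter below the floor. Of the 15, 8 were at least 2-fold higher, in the direction of Ptn, against 0.653% of all genes at or above the floor. The 15 markers had a median of 1.19 and a range from -0.10 for Pdgfra to 1.79 for Kera. Their summed intensity was 80660 in V156D and 50292 in wild type. This and the later sums take every measured gene of a list, also those below the floor. Of 12 endothelial markers, 8 were at or above the floor by mean signal, 7 of them on both arrays. The 8 ran from -0.19 for Egfl7 to 1.39 for Cdh5. Among the 8, 3 were at least 2-fold higher, against 0.653% of all genes at or above the floor. Of these 3, Emcn passed the filter only through its V156D value, with 96.4 there and 38.2 in wild type. Cdh5 had 144 in V156D and 55.1 in wild type, the latter close to the floor. The 2 probe sets of Cdh5 disagreed, with a mean of 0.75 and an SD of 0.91. The endothelial sums were 1588 in V156D and 1143 in wild type. Chondrocyte markers, from Ucma at -0.38 to Col11a2 at 0.15, summed to 176040 in V156D and 175568 in wild type, with a median of 0.02. None of the 15 differed 1.5-fold, against 2.02% lower and 1.70% higher over all genes at or above the floor.

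No nerve tissue marker at or above the floor differed 1.5-fold, against 2.02% lower and 1.70% higher over all genes at or above it. Of 13 measured neuron markers, 3 were at or above the floor, Rbfox3 at 0.28, Map2 at -0.18 and Prph at -0.21. The sums over all 13 were 689 in V156D and 704 in wild type. Tubb3, Snap25 and Elavl4 were below the floor on both arrays. Of 8 Schwann cell markers, 7 were at or above it, from Egr2, also an immediate early gene, at -0.50 to Mbp at 0.21. The sums over all 8 were 4358 in V156D and 4270 in wild type. Pmp22, with 2966 in V156D and 2588 in wild type, weighed most in these sums. Egr2 came next, with 796 in V156D and 1130 in wild type. No marker had a deposited value of 0, since the lowest value of either array was 4.82.

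In the direction of Cck and Gdnf, all 11 measured heat shock genes were lower, with a median of -0.64. They ranged from -1.48 for Dnaja4 to -0.15 for Hspa1b. Of the 11, 2 were at least 2-fold lower, against 0.256% of all genes at or above the floor. Muscle markers summed to 2109 in V156D and 2713 in wild type, with Myod1 at -0.74 and Des at 0.45 among the 5 of 12 at or above the floor. Myod1 reached the floor only through its wild-type value, with 52.0 in V156D and 86.8 in wild type. Averaged over 2 probe sets each, Myod1 had -0.49 and Des 0.16. The brightest muscle marker, Tnnt3, had 1388 in V156D and 1930 in wild type and so weighed most in the muscle sums. Leukocyte and blood markers, 6 of 11 at or above the floor, ran from Cd14 at -0.34 to Alas2 at 0.31. They had no common direction, with 4 ratios above 0, 2 below and a median of 0.03. Their sums over all 11 measured, 1751 in V156D and 2024 in wild type, were set mostly by Cd14, with 1187 in V156D and 1500 in wild type. Osteoblast markers, of which Alpl at 0.24 and Sp7 at 0.09 were the 2 of 5 there, summed to 254 in V156D and 207 in wild type. The sex-linked transcripts also differed, with Xist at 5006 in V156D and 7755 in wild type and Eif2s3y at 490 in V156D and 230 in wild type, so the share of each sex in the pools cannot be told apart from genotype.

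**Figure D4:**
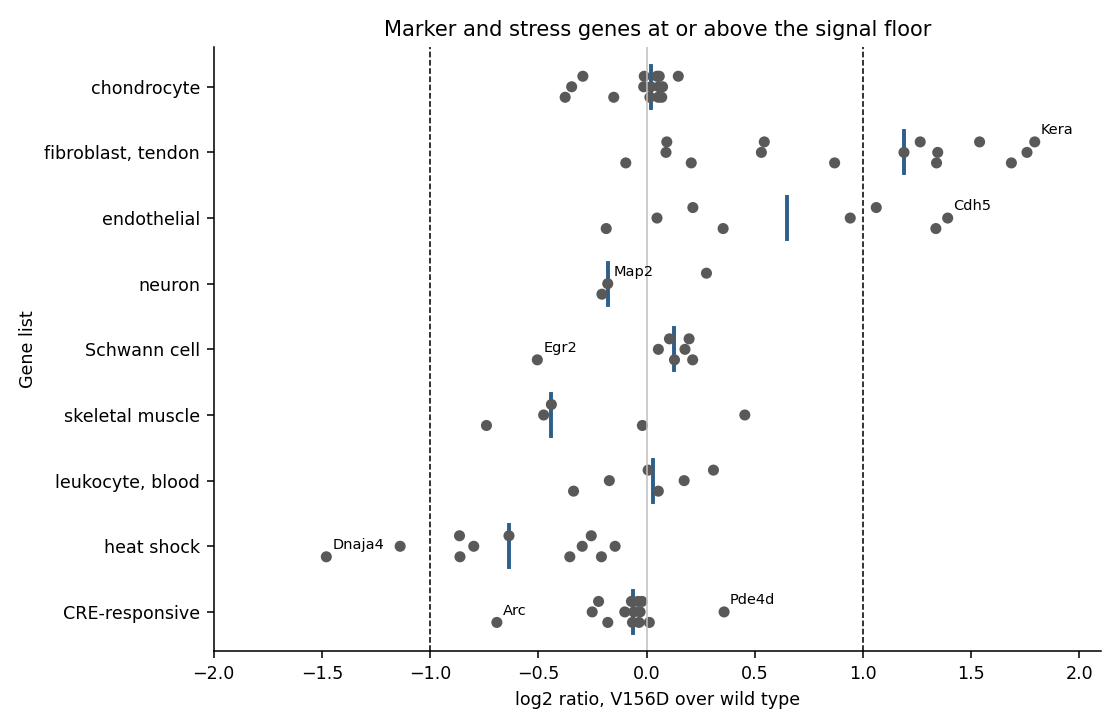
log2 ratio of V156D over wild type for marker, heat shock and cAMP-responsive genes at or above the signal floor, 1 point per gene, with the list median as a vertical bar and 2-fold as dashed lines. Fibroblast and endothelial markers lie mostly to the right, heat shock genes to the left, and chondrocyte markers near 0.

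With 2 arrays the pattern of a gene is a single ratio, and likeness was taken as the absolute difference in log2 ratio over those 2 arrays. The genes nearest to Cck were Dnaja4, a co-chaperone, at a difference of 0.02, G530011O06Rik at 0.04 and Riok2, a kinase of ribosome assembly, at 0.16. Those nearest to Gdnf were Tmem140 at 0.05, the interferon-inducible GTPase gene Gbp2b at 0.05 and the cytokine gene Il23a at 0.06. For Ptn, added after its values were seen, they were Stc1, stanniocalcin-1, Marcks, a substrate of protein kinase C, and Rnase4, a secreted ribonuclease. The differences of those from Ptn were 0.0007, 0.0042 and 0.0043.

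The ratios of the members kept their signs under each scaling and each choice of probe set that gave a value. The log2 ratio of Cck ranged from -1.48 to -1.13 over 5 alternatives, that of Gdnf from -1.25 to -0.80 over 6, and that of Ptn from 1.005 to 1.24 over 6. Mdk ranged from 0.18 to 0.24 over 6 and Bdnf from 0.15 to 0.22 over 5. Cck and Bdnf have no probe set of the plain _at type, so that alternative gave them no value.

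**Figure D5:**
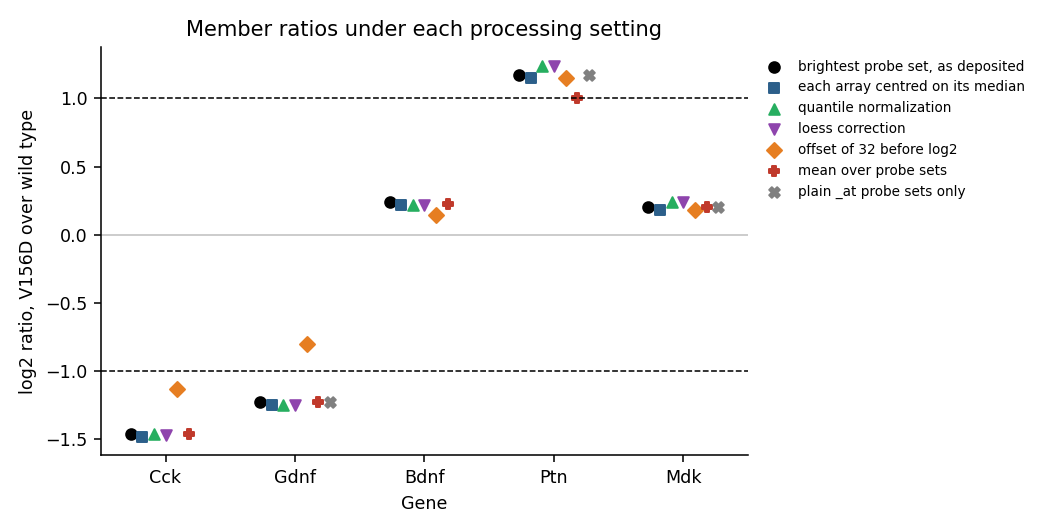
log2 ratio of V156D over wild type for each member under the deposited scale and each alternative scaling, offset or choice of probe set, with 2-fold as dashed lines. Cck and Ptn stay past 2-fold in all points drawn, while Gdnf crosses the line with the offset of 32.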

How the data were processed

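Total RNA (6 µg) of the 2 samples was labelled and hybridised to Affymetrix Mouse Genome 430 2 arrays, per the labels' protocols. The deposited values are linear intensities, 1 per probe set and array. MAS5 is named in the submitters' processing notes, and its settings and the scaling between arrays were not stated in the sources used here. The values do not settle the method. All log2 values (100%) had at most 5 decimals, and the log2 ratios had an SD of 0.17 in the weakest 10% of probe sets against 0.25 over all, which a summary made on the log2 scale could also give. Folds at low signal, as for Gdnf, Cck and Bdnf, may therefore be compressed. Names come from GEO's platform annotation through Entrez identifiers (34741 of 34945 with 1 symbol matched RefSeq GRCm38.p6), while 932 with several symbols and 9160 unnamed here were left out of the gene comparison. The log2 of the deposited intensity was used without further scaling, and each gene took its probe set of highest mean signal. With 1 array per genotype no test, SD over samples or p-value exists, and the number of arrays limits every value. Precision within the arrays was judged only from probe sets of 1 gene, and the SD of ratios over genes does not measure it.

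The members and gene lists were chosen with earlier results of these data known. Named were all members with all probe sets, their listed receptors, the genes of the ligand, receptor, peptide and cAMP lists past 1.5-fold that reached the floor, the top and bottom ratio of each list among genes that reached it, and the 3 genes nearest in ratio. The counting of folds was checked on simulated data with planted changes larger than those of the members. That check does not bear on calls near 2-fold. Alternatives were centring, quantile normalization, loess (span 0.3), an offset of 32, other floors, thresholds and probe set choices. Python 3.11.15, pandas 2.3.3, numpy 2.4.6, statsmodels 0.14.6 and matplotlib 3.10.9 were used. Promoter sequences are RefSeq's.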

Additional observations from a re-analysis of the deposited data

How the results depend on the processing

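The 5 member ratios kept their sign in all alternatives that gave a value. With the offset of 32, Cck had -1.13, Gdnf -0.80 and the fibroblast list median 0.87. The count of members at least 2-fold lower, 2 as reported, was 1 with the offset, 1 with plain _at probe sets only (Cck has none), 1 with the floor at the 60th percentile and 0 at 3-fold. The count at least 2-fold higher was 0 at 3-fold. With plain _at probe sets 3 medians changed sign, to -0.57 from 0.09 for GDNF family ligands, to 0.0419 from -0.71 for Cck, gastrin and their receptors, where Cck is absent, and to 0.25 from -0.18 for neuron markers; they were 0.94 for endothelial and -0.0194 for muscle markers. With the floor at the 40th percentile they were -0.18 for the Cck list and 0.97 for endothelial markers, at the 60th -1.46, 0.35 and, for sex-linked genes, 0.32, and with no floor -0.0678 for the Cck list and -0.0138 for muscle markers. The floors change only which genes enter; for plain _at probe sets, which also change the probe set of some genes, the cause was not tested. Of 188 list medians recomputed, 175 moved by less than 0.26, the SD between probe sets. Some of these small moves also changed the sign, as for neuron markers at 0.0486 with the floor at the 60th percentile. The mean over probe sets put Schwann cell markers at -0.0453 from 0.13 and chondrocyte markers at -0.0108 from 0.02. Averaging its probe sets put Ret at -0.56. Signal near the floor limits Gdnf and Bdnf. No paired analysis was possible because each genotype has 1 array.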

Other observations

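Other peptide precursor genes also reached the floor in these chondrocyte preparations. Of 20 measured, 10 were at or above the floor and none differed 1.5-fold, with 4 ratios above 0 and 6 below. Beside this, 2.02% of all genes at or above the floor were at least 1.5-fold lower and 1.70% at least 1.5-fold higher. Tac1, the precursor gene of substance P, had an intensity of 2789 in V156D and 3904 in wild type. Penk, the proenkephalin gene, had 2984 in V156D and 2181 in wild type, the highest log2 ratio of these 10 at 0.45. Vgf, a secreted granule protein gene that responds to nerve growth factor, was the lowest at -0.58, with 114 in V156D and 171 in wild type. Npy, neuropeptide Y, had 334 in V156D and 251 in wild type, and Nppb, a natriuretic peptide gene, had 298 in V156D and 434 in wild type.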
